A study of Homo sapiens with 6 samples.

Results

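The genes described here encode the heat shock proteins and the J-domain cochaperones of the DNAJ families. They were chosen by symbol: every gene whose name begins with HSPA, HSPB, HSPD, HSPE, HSPH or DNAJA, DNAJB or DNAJC followed by a number, or with HSP90. The rule found 74 genes among 20461 entries with an Ensembl identifier, 27 of them in heat shock protein families, 44 in DNAJ families and 3 read-through entries that join a member to a neighbouring gene. The rule reads names and no expression value.

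Sequenced RNA came from ARPE-19, an established human cell line of the retinal pigment epithelium (RPE). Control libraries (3) came from cells transduced with a control lentivirus, and PDZK1 libraries (3) came from cells transduced with a lentivirus overexpressing PDZK1, which scaffolds membrane proteins through several PDZ domains. Both groups were transduced at a multiplicity of infection of 10, selected with 4 µg/ml puromycin into stable populations and held in 37.5 mM glucose for 48 h, so every library described here comes from cells in high glucose and both groups carry a vector. Nothing in the labels says that the 3 libraries of a group came from separate cultures, and p-values then measure only the spread between these libraries, which may be technical.

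Heat shock proteins are molecular chaperones. HSP70 proteins bind stretches of unfolded protein in a cycle driven by ATP, J proteins bring them substrates and stimulate their ATPase, and HSP110 proteins, relatives of HSP70, release the bound nucleotide. HSP90 proteins act later on partly folded clients such as kinases and steroid receptors, small heat shock proteins hold unfolded proteins without ATP, and HSP60 with HSP10 forms a folding chamber in the mitochondrion. The cytosol, the endoplasmic reticulum (ER) and the mitochondrion each have their own HSP70, HSP90 and J proteins. Cytosolic chaperone genes are classically induced by heat shock factor 1 (HSF1) through heat shock elements, and ER chaperone genes by the unfolded protein response through ER stress elements. The RPE digests shed photoreceptor tips each day and carries a large load of protein and oxidised lipid, and chaperones have long been studied in it for that reason.

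The promoter windows below show which letters the HSP90 genes and the main HSP70 and HSP60 genes carry for those regulators, since an inducible cytosolic HSP90 gene and the ER HSP90 gene lay on opposite sides of 0 in the data that follow. Promoters are those of RefSeq on GRCh38.p14, from 250 bases before to 50 bases after each annotated start, and 64 members had 83 such promoters. Searched on both strands, a heat shock element, read as GAA, TTC and GAA with 2 bases between each, was present in 7 member promoters (8.43%, against 0.49% of all 35116 promoters), those of DNAJA1, DNAJB6, HSP90AA1, HSP90AB1, HSPA6, HSPA8 and HSPD1. The ER stress element, read as CCAAT and CCACG with 9 bases between, was present in 2 member promoters (2.41%, against 0.0769% of all), those of HSPA5 and HSP90B1. A match is a description of letters and not evidence that a factor binds there. Each sequence is written 5′ to 3′ on the strand of its gene, with the matched letters in capitals.
HSP90AA1: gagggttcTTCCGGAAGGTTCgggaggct
HSP90AB1, upstream match: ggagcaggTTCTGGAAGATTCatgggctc
HSP90AB1, downstream match: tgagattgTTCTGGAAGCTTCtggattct
HSPA8, downstream match: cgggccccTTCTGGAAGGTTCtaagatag
HSPD1, overlapping pair: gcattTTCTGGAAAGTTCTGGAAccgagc
HSP90B1, upstream match: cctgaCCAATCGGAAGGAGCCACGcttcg
HSP90B1, downstream match: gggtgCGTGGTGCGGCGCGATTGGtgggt
HSPA5: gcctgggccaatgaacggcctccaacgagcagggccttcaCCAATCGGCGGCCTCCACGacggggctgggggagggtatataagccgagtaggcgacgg

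The HSP90AA1 window lies at chr14:102087112-102087140 on the minus strand, and the HSP90AB1 windows at chr6:44247770-44247798 and chr6:44247823-44247851 on the plus strand. The HSPA8 window lies at chr11:123062171-123062199 and the HSPD1 window at chr2:197500062-197500090, both on the minus strand. Those of HSP90B1 lie at chr12:103930211-103930239 and chr12:103930316-103930344 on the plus strand, and the HSPA5 stretch of 99 bases lies at chr9:125241351-125241449 on the minus strand. The HSP90AA1, HSPA8, HSPD1 and HSP90B1 windows lie in bases that GENCODE release 29 annotates as untranslated region of some transcript, whereas the HSPA5 stretch and the HSP90AB1 windows do not.

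Depth was lowest in control replicate 3 (27970618 counts) and highest in PDZK1 replicate 2 (32804567 counts). Counts of PDZK1, the gene carried by the vector, were 19, 18 and 23 in control against 3020, 2541 and 2828 with PDZK1 (log2 fold change 7.03, edgeR adjusted p 8.16e-09). Control replicate 3 stood apart from the other control libraries on the second principal component (-29.99 against 14.45 and 18.79), and calls that turn on it are given with and without it. Of 12 RPE markers, 3 (RPE65, TTR and TYR) had at most 3 counts in every library, and RLBP1, TYRP1, PMEL and SERPINF1 had means of 0.571 to 2.34 FPKM. The transcription factors OTX2 (23.2 FPKM) and MITF (8.01 FPKM) were higher, and the keratins KRT8 (579 FPKM) and KRT18 (506 FPKM), which other epithelia also express, made up nearly all of the summed RPE list. The RPE marker BEST1 had 11459 counts in PDZK1 replicate 1 and 124 to 181 in the others. Summed markers of fibroblasts, endothelium, blood and photoreceptors stayed at or under 1.32 FPKM in every library, against 1030 FPKM or more for the RPE list, and no marker of any list passed the threshold.

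Chaperone transcripts were abundant, and a few genes made up most of them. Between 1.27% and 1.32% of all counts belonged to members. On the FPKM scale, which corrects for transcript length and allows levels of different genes to be compared, HSPA8 (constitutive cytosolic HSP70, also called HSC70) was the highest, with a mean of 925 FPKM over the 6 libraries. HSP90AB1 (546 FPKM) and HSP90AA1 (419 FPKM), the constitutive and the inducible cytosolic HSP90, came next. They were followed by HSP90B1 (353 FPKM), the HSP90 of the ER known as GRP94, and HSPB1 (324 FPKM), the small heat shock protein HSP27. These 5 genes held 55.5% to 56.5% of the summed FPKM of all members in each library, and their ranges over the 6 libraries did not overlap except between HSP90B1 and HSPB1 (319.6 to 385 against 312 to 340.2 FPKM).

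The mitochondrial chaperonin genes HSPD1 (HSP60, 281 FPKM) and HSPE1 (HSP10, 179 FPKM), the ER HSP70 HSPA5 (BiP, 212 FPKM) and the mitochondrial HSP70 HSPA9 (mortalin, 114 FPKM) formed the next tier. J protein genes lay lower. The highest were DNAJB6 (113 FPKM), which keeps polyglutamine proteins from aggregating, DNAJA1 (104 FPKM) and DNAJB1 (90.6 FPKM), both general partners of cytosolic HSP70. The stress-inducible HSP70 genes HSPA1A and HSPA1B had 50.9 and 42.4 FPKM. HSPA6, an HSP70 gene that is close to silent without stress, had 3 to 20 counts per library (7, 7 and 3 in control against 4, 20 and 17 with PDZK1) and was not tested.

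Of the 74 members, 63 passed the filter on low counts and were tested. The 11 that were not tested are HSPA6, HSPA12B, HSPB7, HSPB9, DNAJB8, DNAJB13, DNAJC5B, DNAJC5G, DNAJC12 and the read-through entries HSPE1-MOB4 and HSPB2-C11orf52. DNAJB8, DNAJC5G, HSPB7, HSPB9 and HSPE1-MOB4 had at most 3 counts in every library.

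**Figure D1:**
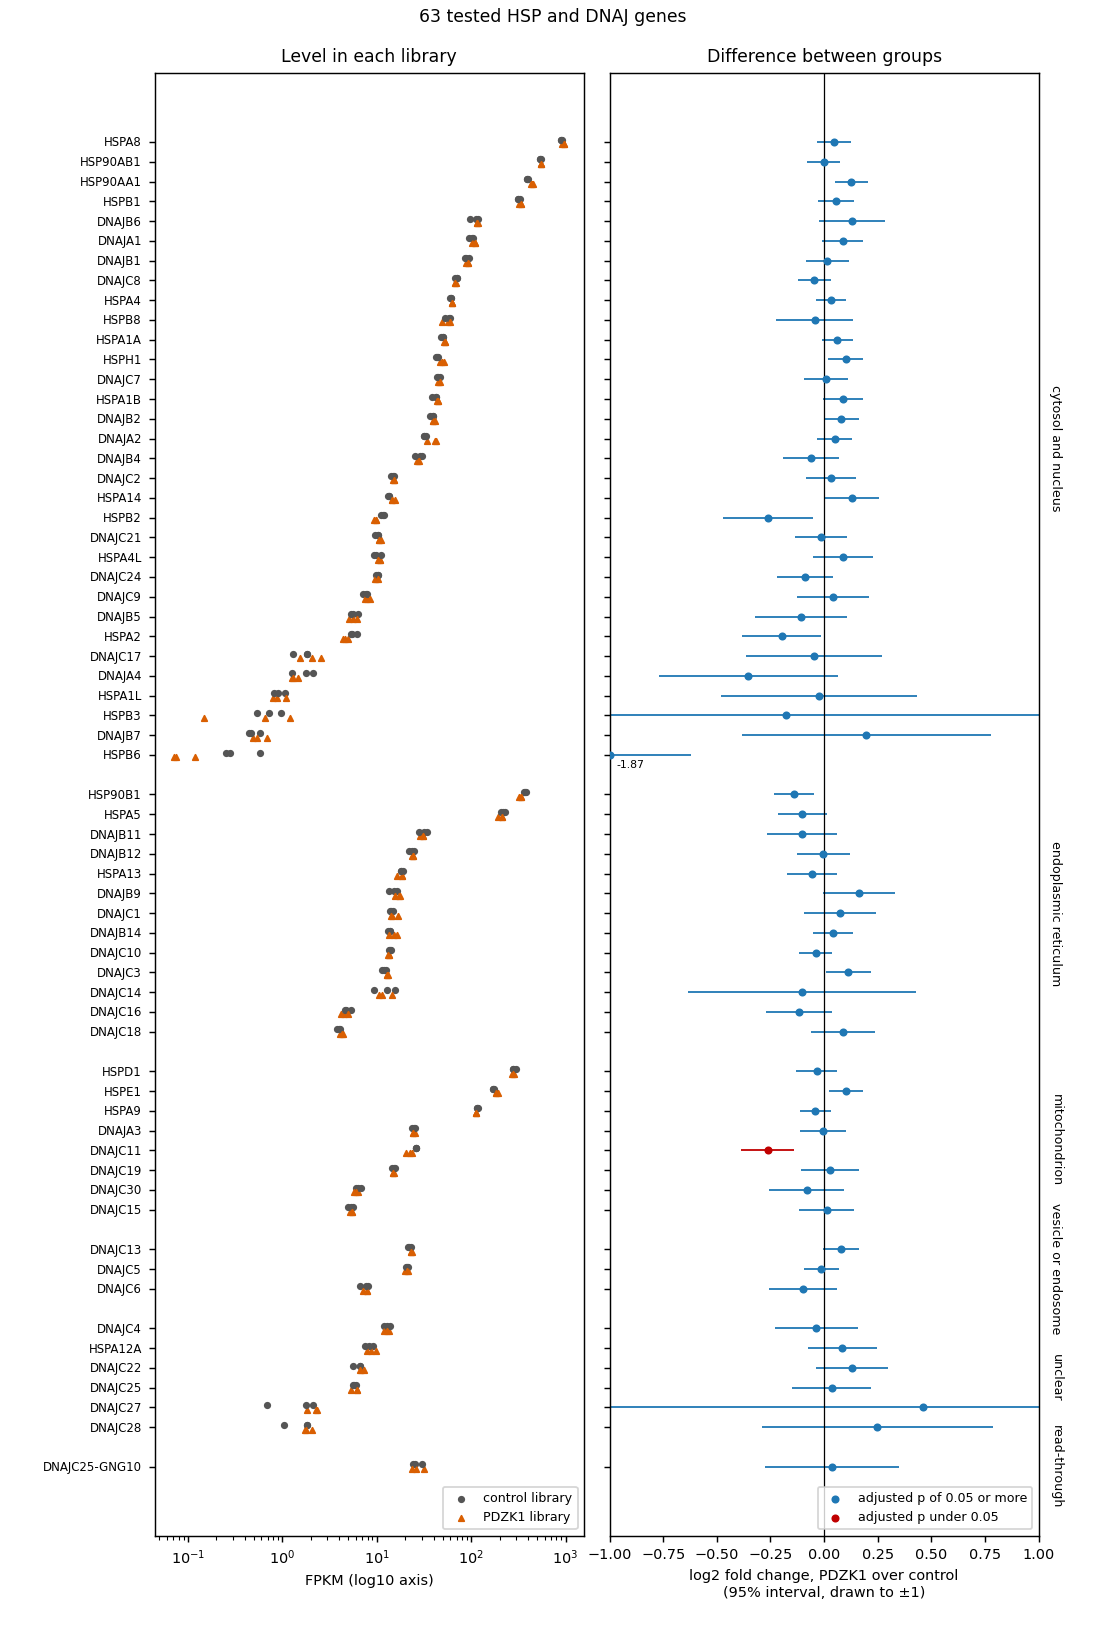
Left, FPKM of each of the 63 tested members in each library on a log10 axis (circles, 3 control libraries; triangles, 3 PDZK1 libraries), grouped by the compartment in which the protein works. Right, log2 fold change of PDZK1 over control with its 95% interval from edgeR, where red marks the 1 gene with an adjusted p under 0.05 (DNAJC11) and the point of HSPB6 (-1.87) lies beyond the axis.

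The comparison of PDZK1 with control libraries asked whether overexpressed PDZK1 goes with other levels of chaperone transcripts under high glucose. Most members differed little. Of 63 tested members, 1 passed an adjusted p under 0.05 (edgeR quasi-likelihood test, Benjamini-Hochberg adjustment over 13645 genes), which is 1.59% against 3.83% of all genes tested. That gene was DNAJC11, which was lower, the direction of 2.41% of all genes tested, and 0 members were higher, the direction of 1.41%. The members' median log2 fold change was 0.012, against -0.00026 over all genes, with 33 members above 0 and 30 below. For 56 of the 63, the 95% interval of the fold change lay wholly within 1.5-fold in either direction, so a larger change lay outside the intervals of these genes. The same held for 10698 of the 13645 genes tested. At an unadjusted p under 0.05 there were 10 members (15.9%, against 17.5% of all genes tested), 5 higher (8.13% of all genes) and 5 lower (9.37% of all genes).

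The 3 control values and the 3 PDZK1 values did not overlap in 19 members, 12 higher and 7 lower, which is 30.2% against 23.9% of all genes tested (11.6% higher and 12.3% lower). Of these 19, 13 belonged to the 23 tested genes of the heat shock protein families (56.5%, 8 higher and 5 lower) and 6 to the 39 tested genes of the DNAJ families (15.4%, 4 higher and 2 lower). The 13 include HSPA1A and HSPA1B, near-identical copies that are not separate observations. HSPB6, also among the 13 and among the 5 members lower at an unadjusted p under 0.05, met the filter on low counts only through its control libraries. Over all tested genes of the heat shock protein families the median log2 fold change was -0.0018, and over those of the DNAJ families it was 0.012.

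DNAJC11 encodes a J protein of the mitochondrial outer membrane that associates with the MICOS complex, which shapes the cristae. It lies at chromosome 1, 6634168 to 6701924, on the minus strand (GRCh38). Levels were 88.5, 89.5 and 90.7 CPM (counts scaled to the size of each library) in control against 76.2, 68.5 and 79.1 CPM with PDZK1. All 3 PDZK1 libraries lay below all 3 control libraries, and the controls were much closer to each other (89.6 ± 1.12, SD, n = 3) than the PDZK1 libraries were (74.6 ± 5.48, SD, n = 3). On the FPKM scale the same order held, with 25.9, 26.0 and 26.3 against 22.3, 20.2 and 23.4. That is a log2 fold change of -0.26 with an SE of 0.055 and a 95% interval from -0.39 to -0.14 (edgeR adjusted p 0.0303). Because a library averages all cells of a culture, less transcript in each cell and fewer cells with the transcript cannot be told apart, here and below.

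The call depended on the fit and on single libraries. With all libraries kept, it was lost with the replicate number as a block (edgeR adjusted p 0.0835), in the non-robust edgeR fit (0.0514) and in the limma fits on log2 FPKM (0.115 to 0.133). It was also lost without control replicate 1 (edgeR adjusted p 0.0826), control replicate 2 (0.128), PDZK1 replicate 1 (0.11) or PDZK1 replicate 2 (0.064), and was kept without control replicate 3 (0.0305) or PDZK1 replicate 3 (0.0495). The log2 fold change stayed between -0.31 and -0.20 under all 20 alternatives. DNAJC11 overlaps THAP3 on the opposite strand, and whether reads were assigned by strand is not given in the sources used here.

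Most tested genes around DNAJC11 lay below 0, and this reached well beyond its neighbours. Of 150 other tested genes that start within 12 Mb of it, 139 had a log2 fold change below 0, with a median of -0.23, and 40 were lower and 1 higher past the threshold. Over all genes tested, 2.41% were lower and 1.41% higher past the threshold, and 49.9% had a log2 fold change above 0. Of 16 tested genes that start within 1 Mb of it, 15 had a log2 fold change below 0, with a median of -0.21 and a range of -0.51 to 0.029. The genes past the threshold were ACOT7 (log2 fold change -0.51, edgeR adjusted p 0.00484), an acyl-CoA thioesterase, and RPL22 (-0.25, edgeR adjusted p 0.0322), a ribosomal protein. The value of DNAJC11 lay within the range of its neighbours. DNAJC16, an ER J protein further along the same arm (chromosome 1, 15526813 to 15592379), had 15 of 18 neighbours below 0 with a median of -0.17, and its own log2 fold change was -0.12 (edgeR adjusted p 0.424). These were the lowest neighbour medians of any tested member. What part the neighbourhood has in the level of DNAJC11 was not tested.

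**Figure D2:**
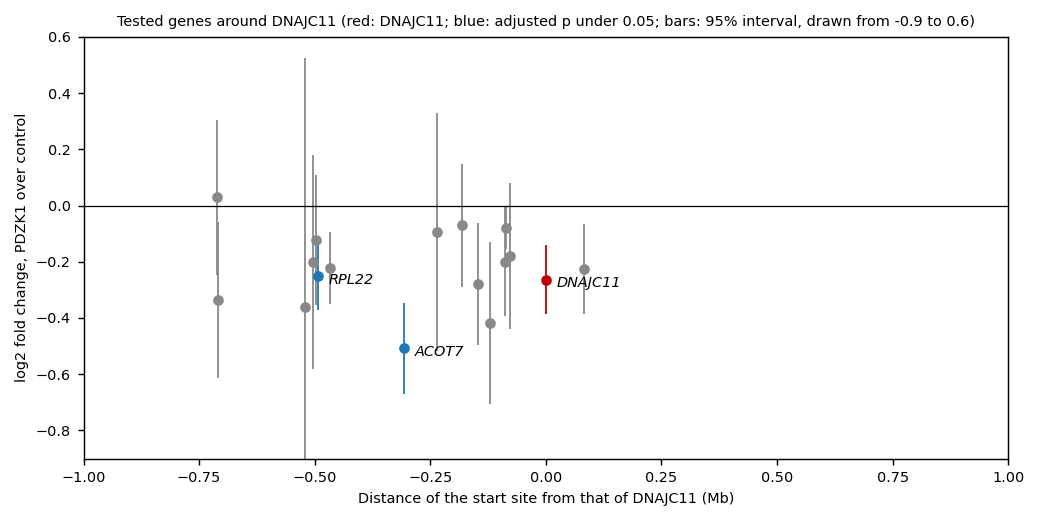
Log2 fold change of PDZK1 over control, with the 95% interval, for DNAJC11 (red) and the 16 tested genes that start within 1 Mb of it, by the distance between start sites in Mb. Of the 16 neighbours 15 lie below 0, and ACOT7 and RPL22 (blue) have an adjusted p under 0.05.

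None of the 3 HSP90 genes passed the threshold, and they lay on different sides of 0. HSP90AA1 (chromosome 14, 102080738 to 102139699, minus strand), the stress-inducible cytosolic HSP90, measured 1446, 1459 and 1447 CPM in control against 1587, 1574 and 1587 CPM with PDZK1. The 2 groups were far apart relative to their spread (1451 ± 6.81 against 1583 ± 7.52 CPM, SD, n = 3 each), with every PDZK1 library above every control library. Its log2 fold change was 0.13 (SE 0.034, 95% interval 0.049 to 0.2), or 9.11% more transcript. With an edgeR adjusted p of 0.0829 it did not pass the threshold over all genes, although it did with DESeq2 (0.00407, where 5.81% of all genes passed), with limma-voom (0.0407) and without control replicate 3 in edgeR (0.035, where 6.32% of all genes passed).

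HSP90B1 (chromosome 12, 103930107 to 103953645, plus strand), which folds secreted and membrane proteins such as integrins and Toll-like receptors in the ER, lay on the other side of 0. It measured 1158, 1182 and 1125 CPM in control against 1062, 1001 and 1082 CPM with PDZK1, without overlap. Its log2 fold change of -0.14 had an SE of 0.042 and a 95% interval from -0.23 to -0.045 (edgeR adjusted p 0.111). It passed with DESeq2 (adjusted p 0.0353) and without control replicate 3 in edgeR (adjusted p 0.0327).

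HSP90AB1 (chromosome 6, 44246166 to 44253888, plus strand), the constitutive cytosolic HSP90, did not separate the groups. Values were 1537, 1507 and 1509 CPM in control against 1515, 1514 and 1518 CPM with PDZK1, and the PDZK1 values fell between the control values. Its log2 fold change was -0.0018, and the 95% interval of -0.08 to 0.076 bounds a change of either sign.

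Ratios of counts between HSP90 genes of one library do not depend on the scaling of libraries. HSP90AA1 to HSP90B1 was 1.25, 1.23 and 1.29 in control against 1.49, 1.57 and 1.47 with PDZK1, a mean ratio 1.2 times as high. HSP90AA1 to HSP90AB1 was 0.941, 0.968 and 0.959 in control against 1.05, 1.04 and 1.05 with PDZK1. In both ratios every PDZK1 library lay above every control library. These pairs were chosen after their values were seen, and no test was applied to them. None of the 3461 windows of 50 bases in an HSP90AA1 transcript occurred in HSP90AB1.

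**Figure D3:**
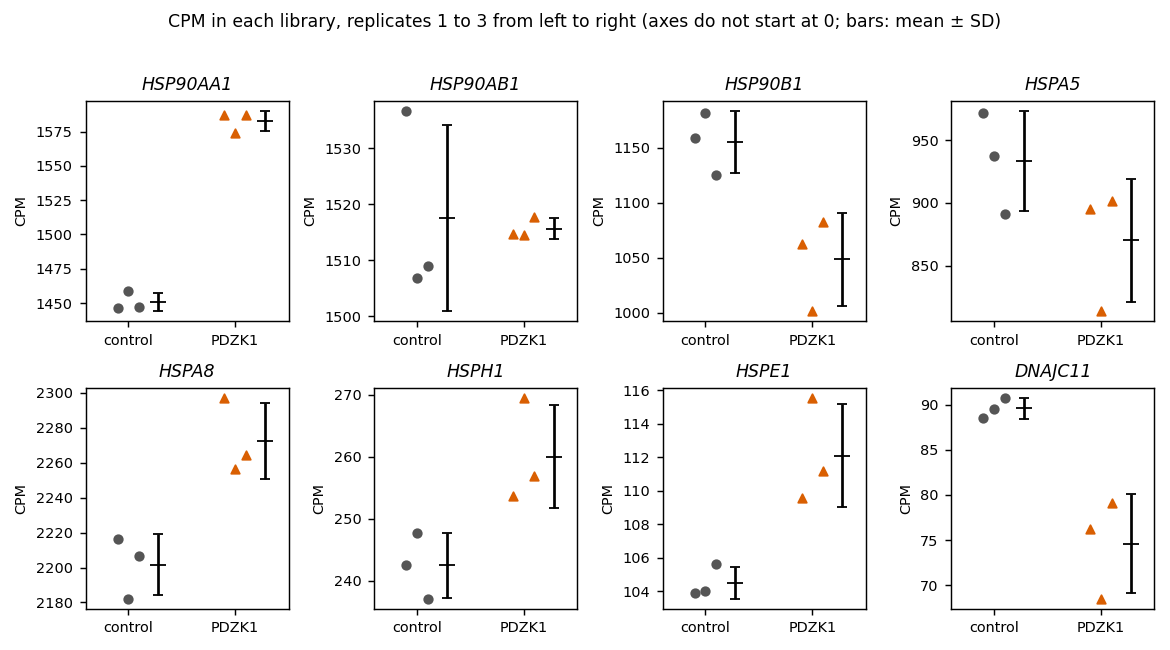
CPM of 8 members in each library (circles, control replicates 1 to 3; triangles, PDZK1 replicates 1 to 3), with the mean and SD of each group at the side and axes that do not start at 0. HSP90AA1, HSPA8, HSPH1 and HSPE1 lie higher in all 3 PDZK1 libraries, HSP90B1 and DNAJC11 lower, and HSP90AB1 and HSPA5 overlap.

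Among cytosolic HSP70 genes, differences were small. Of 6 tested genes, 4 were higher without overlap (11.6% of all genes) and 1 was lower (12.3% of all genes), and none passed the threshold. Of the 4, HSPA1A and HSPA1B are near-identical copies and not separate observations. HSPA8 measured 2216, 2182 and 2206 CPM in control against 2297, 2256 and 2265 CPM with PDZK1, a log2 fold change of 0.046 (95% interval -0.034 to 0.13, edgeR adjusted p 0.57). The inducible genes HSPA1A and HSPA1B lie beside each other on chromosome 6 (31815464 to 31817946 and 31827735 to 31830255), and 72.6% of the 50-base windows of the HSPA1A transcript also occur in HSPA1B, so their separate counts are uncertain. Summed, they had 7994, 7602 and 6429 counts in control against 8236, 8249 and 8117 counts with PDZK1 (log2 fold change 0.074, 95% interval -0.006 to 0.15, edgeR adjusted p 0.329).

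HSPA14, an HSP70 that works at the ribosome, was at 25.4, 25.3 and 25.7 CPM in control against 27.4, 28.99 and 27.1 CPM with PDZK1 (log2 fold change 0.13, edgeR adjusted p 0.283). HSPA2, best known from spermatogenesis, was at 16.0, 16.2 and 17.0 CPM in control against 14.2, 15.3 and 13.5 CPM with PDZK1 (-0.2, edgeR adjusted p 0.25). The groups did not overlap for either gene. Both, and HSPA4 and HSPA4L in the next paragraph, were named after their values were seen.

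All 3 HSP110 genes, the nucleotide exchange factors of HSP70, had log2 fold changes above 0 (0.032 for HSPA4, 0.087 for HSPA4L and 0.1 for HSPH1), and none passed the threshold. HSPH1 (chromosome 13, 31134974 to 31162388) was at 243, 248 and 237 CPM in control against 254, 269.5 and 257 CPM with PDZK1. Its groups did not overlap (95% interval of the log2 fold change 0.019 to 0.18, edgeR adjusted p 0.183). Summed FPKM of the 3 genes rank likewise, with 114.1, 115.9 and 113.8 in control against 121, 122.3 and 124.7 with PDZK1. HSPA4L overlapped between groups, with control replicate 3 the highest of the 6 libraries, and passed the threshold only without that library (log2 fold change 0.16, edgeR adjusted p 0.0352).

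Of 5 tested members in the small heat shock protein family, 4 had log2 fold changes below 0, and none passed the threshold. HSPB1, the most abundant of the 5, was the exception (0.053, 95% interval -0.03 to 0.14, edgeR adjusted p 0.517). CRYAB, a chaperone of the cytosol outside the naming rule, had a higher mean (360 FPKM) than HSPB1. Its log2 fold change was 0.0019 (95% interval -0.86 to 0.87). HSPB8, a partner of BAG3 in selective autophagy, was at -0.044 (edgeR adjusted p 0.831). HSPB3 was at -0.18 (edgeR adjusted p 0.918) on only 4 to 28 counts. HSPB3 and CRYAB were named after their values were seen. HSPB2 (chromosome 11, 111912242 to 111914093), a small heat shock protein of muscle, was at 10.9, 10.2 and 10.7 CPM in control against 8.89, 8.67 and 8.92 CPM with PDZK1. Although every PDZK1 library was lower (log2 fold change -0.26, SE 0.093, edgeR adjusted p 0.172), HSPB2 overlaps the read-through entry HSPB2-C11orf52 on its own strand and CRYAB on the opposite strand. HSPB6, also known from muscle, had the lowest log2 fold change of all members (-1.87, SE 0.557, edgeR adjusted p 0.107), on 30, 10 and 13 counts in control against 7, 4 and 4 with PDZK1. At so few counts the size of that difference is poorly known, and its 95% interval ran from -3.11 to -0.62. HSPB6 was at 0.929, 0.324 and 0.471 CPM in control against 0.218, 0.122 and 0.126 CPM with PDZK1. It met the filter on low counts only through the control libraries, so its rank as the lowest member rests partly on that filter. Only 17 of the alternatives tested it.

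Cytosolic J protein genes lay on both sides of 0. Of 16 tested cytosolic and nuclear DNAJ genes, 9 were above 0 and 7 below, and none passed the threshold. DNAJA1 (log2 fold change 0.086, edgeR adjusted p 0.354), DNAJB1 (0.015, 0.908) and DNAJB6 (0.13, 0.365) overlapped between groups, and for DNAJB6 control replicate 3 lay apart at 238 CPM against 279 to 299.6 CPM in the others. Without that library the log2 fold change of DNAJB6 was 0.055. DNAJA4, a cytosolic J protein, had the second lowest log2 fold change of the members (-0.35, edgeR adjusted p 0.371) on 118 to 224 counts. DNAJB7 (0.2, edgeR adjusted p 0.762) and DNAJC28 (0.25, edgeR adjusted p 0.664) were among the highest of all members, each on at most 107 counts. DNAJC28 is not among the 16, as its compartment was left unclear.

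DNAJC27, which joins a small GTPase domain to a J domain, had the highest log2 fold change of the members (0.46) with an SE of 0.787. It had 332, 33 and 237 counts in control against 268, 305 and 309 with PDZK1. Control replicate 2 stood far below the others, and without it the log2 fold change was -0.048. FPKM of DNAJC27 were less uneven (2.11, 0.69 and 1.76 against 2.33, 1.83 and 2.3), and the gene overlaps DNAJC27-AS1 on the opposite strand.

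In the ER, the abundant chaperones lay below 0 and the J proteins on both sides of it. All 13 ER members were tested, 5 were above 0 and 8 below, with a median of -0.039, and none passed the threshold. HSPA5 (chromosome 9, 125234853 to 125241330, minus strand), the master chaperone of the ER lumen, measured 971, 937 and 891 CPM in control against 895, 814 and 902 CPM with PDZK1. The groups overlapped through control replicate 3, which lay below 2 of the PDZK1 libraries (log2 fold change -0.1, 95% interval -0.21 to 0.013, edgeR adjusted p 0.35). PDZK1 replicate 2 was the lowest, and without it the log2 fold change of HSPA5 was -0.053. Within a library, the count ratio of HSPA8 to HSPA5 was 2.28, 2.33 and 2.48 in control against 2.57, 2.77 and 2.51 with PDZK1. The groups again did not overlap, but the highest control ratio (2.48) and the lowest PDZK1 ratio (2.51) lay close. This pair, too, was chosen with earlier results of these data known, and no test was applied.

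The J proteins that serve HSPA5 lay on both sides of 0, and none passed the threshold. DNAJB11 (ERdj3), which delivers unfolded substrates, was at -0.1 (edgeR adjusted p 0.522), and DNAJC10 (ERdj5), a disulfide reductase of ER-associated degradation, was at -0.039 (0.618). DNAJC3 (p58IPK) was at 75.9, 73.0 and 69.2 CPM in control against 78.6, 78.4 and 79.0 CPM with PDZK1, higher without overlap (log2 fold change 0.11, SE 0.046, edgeR adjusted p 0.239). DNAJB9 (ERdj4), a repressor of the stress sensor IRE1, was at 0.16 (95% interval -0.0042 to 0.33, edgeR adjusted p 0.3). HSPA13, a microsomal HSP70, was at -0.057 (0.643). DNAJC14, an ER membrane J protein, varied widely within groups, from 969 to 1830 counts in the control libraries alone. DNAJC14 and DNAJC16 were named after their values were seen.

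HSP90B1 and HSPA5 held most of the summed FPKM of the ER members. Summed over the 13 ER members, FPKM were 764, 771 and 729.7 in control against 718, 676 and 720.3 with PDZK1, or 16.6% of the members' total in control and 15.2% in PDZK1 libraries. Every PDZK1 library was lower than every control library. The 38 members of the cytosol and nucleus summed to 3050.3, 3036 and 2969.7 in control against 3199, 3094 and 3205 FPKM with PDZK1, or 66.6% and 68.2% of the total, also without overlap. HSPA8 (mean 899 FPKM in control, 951 with PDZK1) and HSP90AA1 (396 and 442 FPKM) weigh heavily in that sum. Over the 32 tested members of this compartment the median log2 fold change was 0.023, with 18 above 0 and 14 below. Sums over the 8 mitochondrial members overlapped (639.7, 640.9 and 665 against 640.8, 661 and 649).

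**Figure D4:**
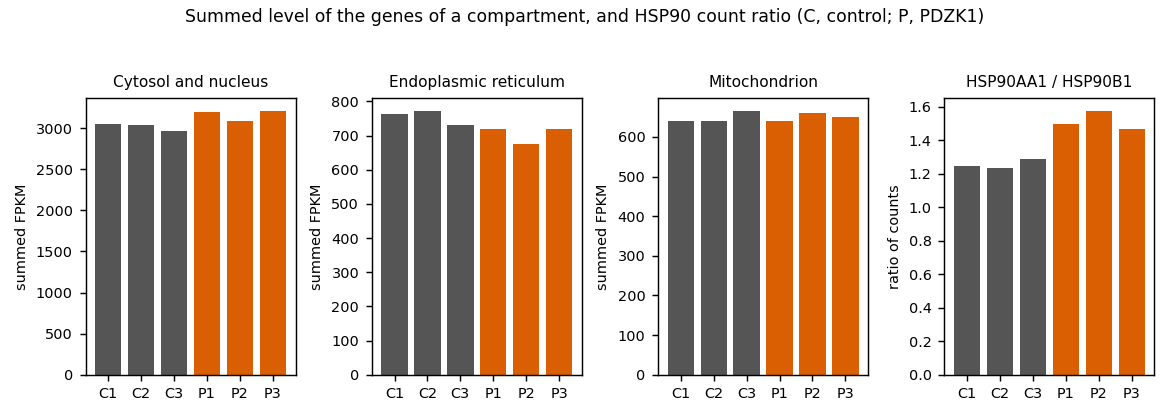
Summed FPKM of the members of 3 compartments in each library (C1 to C3, control; P1 to P3, PDZK1) and, at the right, the ratio of HSP90AA1 to HSP90B1 counts. ER sums run from 729.7 to 771 FPKM in control and from 676 to 720.3 FPKM in PDZK1 libraries, and the ratio from 1.23 to 1.29 in control and from 1.47 to 1.57 in PDZK1 libraries.

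In the mitochondrion, DNAJC11 apart, no member passed the threshold. HSPE1 and HSPD1, the lid and the barrel of the chaperonin, lie on opposite strands of chromosome 2 (197499994 to 197503457 and 197486581 to 197516737). The annotated span of HSPE1 falls inside that of HSPD1, and whether reads were assigned by strand is not given in the sources used here. HSPE1 was at 103.9, 104.0 and 105.6 CPM in control against 109.6, 115.6 and 111.2 CPM with PDZK1, higher without overlap (log2 fold change 0.1, SE 0.036, edgeR adjusted p 0.168). HSPD1 overlapped, with 673, 683 and 731 CPM against 665, 699.98 and 673 CPM (-0.034, edgeR adjusted p 0.746). Numbered pseudogenes of HSPE1 (26), HSPD1 (17) and the cytosolic HSPA8 (17) are annotated, and their reads may be shared with these genes.

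HSPA9 was at 559.96, 550.2 and 546 CPM in control against 533, 539 and 538 CPM with PDZK1, lower without overlap by a small amount (log2 fold change -0.041, 95% interval -0.11 to 0.033, edgeR adjusted p 0.586). The J proteins of its import motor, DNAJC15 (0.012) and DNAJC19 (0.027), and its matrix partner DNAJA3 (-0.0046) lay close to 0, with edgeR adjusted p-values of 0.945, 0.866 and 0.977. Outside these compartments, the endosomal DNAJC13 was higher without overlap (0.077, edgeR adjusted p 0.325), whereas the synaptic vesicle protein DNAJC5 (-0.014, 0.891) and the clathrin uncoating factor DNAJC6 (-0.098, 0.54) overlapped. All 3 were named after their values were seen.

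The 6 tested members with a heat shock element in a RefSeq promoter had a median log2 fold change of 0.066 (range -0.034 to 0.13), with 4 above 0 and 2 below. The 51 other tested members with a listed promoter had a median of -0.003, with 25 above 0 and 26 below. Only exact matches within the promoter window were counted. Elements with a mismatch or further away were missed, so these other members are not known to lack the element. They include the stress-inducible HSPA1A and HSPA1B, and DNAJB1. HSP90AA1 and HSP90AB1 both carry the element, as shown above, and lay at 0.13 and -0.0018. The 2 genes with the ER stress element, HSPA5 and HSP90B1, lay at -0.1 and -0.14. These are descriptions of few genes, and no test was applied.

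Regulators and partners outside the naming rule were covered by a list of 87 genes, of which 85 were tested. None was higher past the threshold and 2 were lower (2.35%, against 3.83% of all genes tested), with a median log2 fold change of -0.03. HSF1, the activator of the heat shock response, measured 48.5, 47.5 and 54.0 CPM in control against 49.9, 51.9 and 49.1 CPM with PDZK1 (log2 fold change 0.0091, edgeR adjusted p 0.963), and HSF2 was at -0.03 (0.892). Among transcription factors of the unfolded protein response, ATF4 was at 0.085 (edgeR adjusted p 0.209), ATF6 at -0.035 (0.666), XBP1 at -0.17 (0.396) and DDIT3 at -0.057 (0.749). XBP1 passed the threshold without control replicate 3 (log2 fold change -0.27, edgeR adjusted p 0.0156).

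DERL2, a channel component of ER-associated degradation, was lower past the threshold. It measured 54.5, 52.3 and 51.2 CPM in control against 39.5, 39.5 and 39.2 CPM with PDZK1 (log2 fold change -0.42, SE 0.049, edgeR adjusted p 0.0018), and it passed with every single library left out. TRAP1, the HSP90 of the mitochondrion, measured 81.8, 88.4 and 84.3 CPM in control against 74.6, 75.5 and 72.4 CPM with PDZK1 (-0.19, SE 0.045, edgeR adjusted p 0.0452). TRAP1 lost the threshold without control replicate 1 (edgeR adjusted p 0.0686), control replicate 2 (0.194) or PDZK1 replicate 1 (0.152), 2 (0.0894) or 3 (0.185). With all libraries kept, it was also lost with limma-voom, the log2 FPKM fits, the non-robust fit, the replicate block, library totals and assembled loci kept. In all, TRAP1 passed in 6 of the 20 alternatives, while its log2 fold change stayed between -0.22 and -0.16 under all 20.

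Of the 18 other ER chaperones and exchange factors on the list, 13 were below 0, and the groups did not overlap in 10 (55.6%, against 23.9% of all genes tested), 9 of them lower. DERL2 was the 1 gene among them that passed. The disulfide isomerases PDIA3 (log2 fold change -0.14, edgeR adjusted p 0.0769) and PDIA4 (-0.14, 0.121), the mannosidase-like EDEM1 (-0.15, 0.101) and the lectin chaperone CALR (-0.094, 0.27) were lower in CPM in every PDZK1 library without passing. On the FPKM scale the groups overlapped for PDIA3 and CALR, and did not overlap for PDIA4 and EDEM1. Without control replicate 3, PDIA3 (-0.14, edgeR adjusted p 0.0418) and PDIA4 (-0.17, edgeR adjusted p 0.0456) passed. HERPUD1, an ER stress gene that organises the degradation machinery, was higher in every PDZK1 library (0.18, edgeR adjusted p 0.053). It passed with DESeq2 (adjusted p 0.035), on library totals (edgeR adjusted p 0.0401) and with at least 10 counts in every library (edgeR adjusted p 0.048). Of 20 HSP70 and HSP90 cochaperones in the cytosol none passed, with 12 above 0 and 8 below and a median of 0.013. BAG3, a nucleotide exchange factor of HSP70, passed without control replicate 3 (log2 fold change 0.19, edgeR adjusted p 0.0171). BAG3, PDIA3, PDIA4, EDEM1, CALR and HERPUD1 were named after their values were seen.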

How the data were processed

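Total RNA of 3 control and 3 PDZK1 libraries of ARPE-19 cells was sequenced by a company. Estimated counts per gene were deposited by the authors as whole numbers. The authors also deposited FPKM, which are scaled by transcript length and mapped fragments. The submitters' processing notes name fastp 0.20.1, HISAT2 2.2.1 and GRCh38, while the counting program, its strand setting and the annotation are not given in the sources used here. Per-sample values that match no sample fill 3 columns of both tables and were not used. Of 21314 entries, 853 assembled loci (0.519% to 0.536% of counts) were left out of the tests.

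Estimated counts were fitted with edgeR 4.0.16 in R 4.3.3 (filterByExpr, TMM, robust quasi-likelihood test, no covariates), with Benjamini-Hochberg adjustment over 13645 genes and a threshold of 0.05. CPM are counts scaled to TMM library sizes. Intervals are 95% intervals of the fit, and errors are SD over 3 libraries. Depth ran from 27970618 to 32804567 counts. A floor of 3 counts was chosen for all libraries, and it covers counting error only. Alternatives were DESeq2 1.42.0, limma 3.58.1 (voom, and log2 FPKM after adding 1 or 0.1, over genes with a mean of at least 0.5 FPKM or over all), other scalings and count filters, a non-robust fit, a fold change over 1.5, the replicate number as a block, and each library left out. Summing read-through entries was chosen after seeing the data.

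The members, the lists and the tests were chosen with earlier results of these data known. Compartments were assigned by hand from textbook knowledge, with 7 members left unclear. Named are members past the threshold, 26 representatives of families and compartments, the 3 highest and 3 lowest fold changes, the 5 highest FPKM, up to 8 members without overlap and with an unadjusted p under 0.05, members at the floor, and listed genes past the threshold with HSF1, HSF2, ATF4, ATF6, XBP1 and DDIT3. Positions are those of GENCODE release 29, in which all 74 members matched by identifier.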

Additional observations from a re-analysis of the deposited data

How the results depend on the processing

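The number of members past the threshold was 1 in the fit reported. It was 3 with DESeq2 (DNAJC11, HSP90AA1 and HSP90B1) and 2 with limma-voom (DNAJC11 and HSP90AA1). It was 0 in all 3 fits on log2 FPKM (pseudocount of 1, of 0.1, and of 1 without the filter), 0 in the non-robust fit and 0 with a fold change over 1.5. Leaving out single libraries gave 0 to 4, with 4 (DNAJC11, HSP90AA1, HSP90B1 and HSPA4L) only without control replicate 3. The shares of all genes called moved too, to 5.81% with DESeq2 and 6.32% without control replicate 3. The number of listed related genes past the threshold was 2, and it became 4 with DESeq2, 1 with limma-voom, 0 in all 3 log2 FPKM fits, 1 in the non-robust fit, 0 with a fold change over 1.5, 1 with assembled loci kept, 3 with at least 10 counts in every library (HERPUD1 gained as higher), and 1 to 6 with single libraries left out. On library totals it was 2, with HERPUD1 gained and TRAP1 lost. The cause of these differences was not tested. Other scalings, other count filters and summed read-through entries kept 1 member past the threshold, and library totals moved the median over all genes by 0.018.

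Replicate numbers are shared between groups, but deviations of libraries with the same number did not go together (r -0.0462, -0.056 and -0.143 over genes), so they were not read as pairs. With the replicate number as a block, 0 members and 1 listed gene passed.

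Several directions turned. The log2 fold change of HSP90AB1 was 0.0081, 0.0082 and 0.0081 in the log2 FPKM fits, 0.016 on library totals and -0.0071 to 0.0070 with single libraries left out. DNAJA3 gave 0.0069, 0.0072 and 0.0069, then 0.013, and -0.037 to 0.014 in the same order, and DNAJC19 gave -0.017, -0.018 and -0.017 in the log2 FPKM fits. With single libraries left out, HSPB8 ran from -0.098 to 0.034, DNAJB1 from -0.022 to 0.057, HSPD1 from -0.058 to 0.0026, DNAJC15 from -0.025 to 0.048, DNAJC27 from -0.048 to 0.93, HSF1 from -0.027 to 0.068 and HSF2 from -0.099 to 0.031. The median of all members (0.012) ran from -0.0011 to 0.03 and was below 0 only without PDZK1 replicate 3. The ER median ran from -0.06 to 0.027 over the 20 alternatives and was above 0 only without control replicate 1. PDZK1 passed in all 20.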
